A study of Mus musculus with 22 samples.

Results

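Of the 52535 gene symbols counted in 12 RNA-seq libraries of mouse embryonic stem cells, 8 genes are described here: Csmd3, Efhc2, Loxl4, Cyp2b23, Egr4, Spint5, Slc13a5 and Tbxa2r. They were picked by symbol because their reads were absent or few in unedited cells and many in cells of at least 1 knockout genotype. No numeric limit was set for that choice. The levels of these genes in these libraries, and every contrast of them among the genotypes, chose them, so their values are given as a description with no test.

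The cells were E14, an established mouse embryonic stem cell line. LIF and the 2i inhibitors, which hold such cells undifferentiated, had been withdrawn and 2 µM retinoic acid, a vitamin A derivative that starts differentiation and turns on Hox genes, had been given for 1 day, in all libraries alike. The genotypes were WT (unedited), E1-KO (without the element E1), E2-KO (without the element E2) and D-KO, with 3 libraries each; the labels do not spell out D-KO, which is read here as lacking both elements. By its title the study asked how enhancers, here E1 and E2, jointly regulate HoxB and the early steps of differentiation that retinoic acid starts. The labels do not say whether the libraries of a genotype came from separate cultures or clones, so a property of a clone and an effect of a deletion cannot be told apart, and p-values measure only the spread between these samples.

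Library totals ran from 9101547 to 13007735 counts. The WT libraries differed most among themselves: mitochondrially encoded genes took 1.94% to 5.88% of their counts, against 1.36% to 1.48% in E1-KO cells, 1.63% to 1.81% in those of E2-KO and 2.53% to 2.69% for D-KO. The common dispersion of counts was 0.0995 among WT and 0.00333 among knockout libraries. The Y-linked genes Ddx3y (475 to 633 counts) and Eif2s3y (235 to 317 counts) were detected in every WT library and had 0 counts in all 9 knockout libraries. All 8 embryonic stem cell markers listed, Pou5f1 and Nanog among them, were detected in every genotype, at 2682 to 4918 summed CPM (counts scaled to library size, TMM-normalised) in WT and 5142 to 7002 CPM in the knockout libraries. Relative to WT, 7, 7 and 5 of the 8 were called higher in E1-KO, E2-KO and D-KO (15.7%, 16.7% and 10.6% of all tested genes). Of 7 primitive endoderm markers 7, 7 and 6 were called lower (18.5%, 18.6% and 12.2% of all tested genes). The part of these differences in the levels below was not tested.

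The 8 genes are not known as a pathway. Csmd3 encodes a very large membrane protein with CUB and sushi domains, known from brain. Efhc2 encodes an EF-hand domain protein of the ciliary axoneme and Loxl4 a lysyl oxidase-like enzyme that acts on collagen and elastin. Cyp2b23 belongs to a cytochrome P450 subfamily best known from liver. Egr4 is a zinc finger transcription factor of the early growth response family, whose members are induced within minutes to hours of a stimulus in many cells. Spint5 is a Kunitz-type protease inhibitor gene within a cluster of such genes, Slc13a5 encodes the sodium-coupled citrate carrier of the plasma membrane, and Tbxa2r encodes the thromboxane A2 receptor, a G protein-coupled receptor known from platelets and smooth muscle.

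The genes lie on 8 different chromosomes (GENCODE M21 annotation, GRCm38, the assembly also called mm10): Csmd3 at chr15:47580637-48792063, Efhc2 at chrX:17132049-17319368, Loxl4 at chr19:42593982-42612813, Cyp2b23 at chr7:26665227-26686437, Egr4 at chr6:85511121-85513589 and Slc13a5 at chr11:72241989-72267222, all on the minus strand, with Spint5 at chr2:164715305-164718068 and Tbxa2r at chr10:81328731-81335172 on the plus strand. All are annotated as protein-coding. Their exons add up to between 0.453 kb (Spint5) and 16.9 kb (Csmd3).

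Sequence upstream of the start, 250 bases, was at hand for 7 of the 8 genes in RefSeq's table for GRCm38.p6. The windows of Loxl4, Egr4, Cyp2b23 and Spint5 are shown because 2 of them are rich and 2 poor in CpG, and because the CpG-rich Egr4 and the CpG-poor Cyp2b23 divided their counts among the libraries alike, at levels far apart. They are read 5′ to 3′ on the gene's own strand, with CG pairs in capitals, at chr19:42612807-42613056 (minus strand), chr6:85513590-85513839 (minus strand), chr7:26686431-26686680 (minus strand) and chr2:164715055-164715304 (plus strand).
Loxl4: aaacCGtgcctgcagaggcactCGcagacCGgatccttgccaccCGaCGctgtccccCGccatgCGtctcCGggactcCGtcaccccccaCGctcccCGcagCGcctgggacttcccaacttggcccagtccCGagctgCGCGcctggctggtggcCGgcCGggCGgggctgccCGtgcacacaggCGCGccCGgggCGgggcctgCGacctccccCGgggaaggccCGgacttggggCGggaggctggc
Egr4: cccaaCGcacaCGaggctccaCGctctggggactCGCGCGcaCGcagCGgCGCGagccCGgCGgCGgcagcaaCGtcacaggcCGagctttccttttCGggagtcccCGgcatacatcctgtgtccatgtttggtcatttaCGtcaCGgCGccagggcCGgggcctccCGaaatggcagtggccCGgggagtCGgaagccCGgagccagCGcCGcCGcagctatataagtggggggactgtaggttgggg
Cyp2b23: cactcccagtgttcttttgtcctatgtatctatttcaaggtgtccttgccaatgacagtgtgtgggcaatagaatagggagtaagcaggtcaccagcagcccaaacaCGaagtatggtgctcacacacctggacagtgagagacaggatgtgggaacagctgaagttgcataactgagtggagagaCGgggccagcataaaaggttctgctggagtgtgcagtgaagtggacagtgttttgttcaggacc
Spint5: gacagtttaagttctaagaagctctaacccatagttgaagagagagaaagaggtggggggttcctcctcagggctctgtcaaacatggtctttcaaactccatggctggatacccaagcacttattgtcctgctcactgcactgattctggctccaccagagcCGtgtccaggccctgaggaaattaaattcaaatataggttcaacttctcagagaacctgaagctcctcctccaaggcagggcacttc

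Egr4 and Loxl4 had CpG-rich upstream windows, with 28 and 27 CG pairs and a ratio of observed to expected CpG of 0.971 and 0.753. Cyp2b23 and Spint5 had 2 and 1 CG pairs and ratios of 0.136 and 0.0675. Over 32851 such windows of all genes the median ratio was 0.374, and 92.7% of windows lay below that of Egr4 and 9.93% below that of Spint5. Slc13a5 had windows from 2 annotated starts with ratios of 0.938 and 0.483, Tbxa2r had windows with 0.0413 and 0.309, and Efhc2 had 1 window with 0.268. The letters AGGTCA, the core of a nuclear receptor half-site, were found on either strand in the Cyp2b23 window (1 match) and in both Tbxa2r windows (2 and 1 matches), and in 14.0% of all windows. The letters GGGCGG, a GC box, were found 3 times upstream of Loxl4 and 1 and 3 times upstream of Slc13a5, and in 32.7% of all windows. TATAAA was found in none of the 9 windows and in 12.4% of all. Only these exact letters were searched for, so variants of a TATA box are not covered, such as TATATAAG near the end of the Egr4 window. CACCC was found in 52.0% of all windows, those of Efhc2, Loxl4, Tbxa2r and 1 of Slc13a5 among them. The plot of CpG content places each window among all others.

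**Figure D1:**
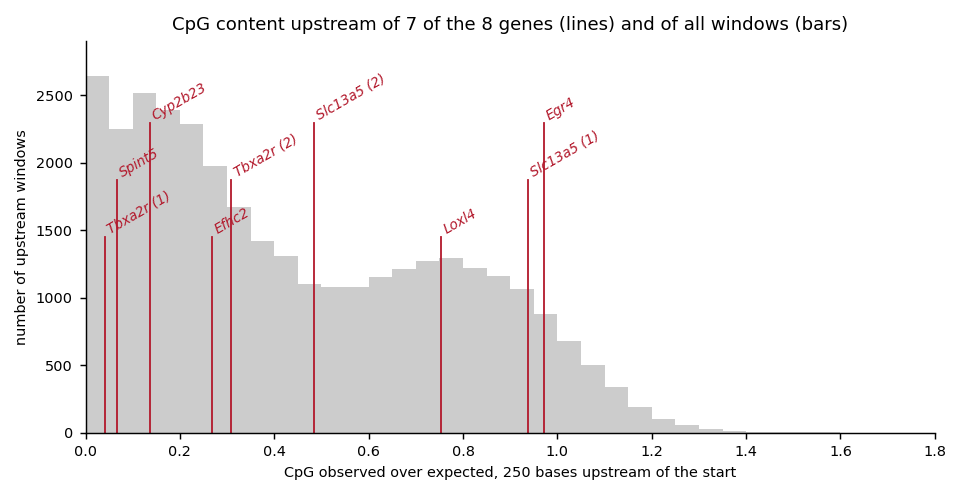
Number of upstream windows (bars, all genes, 250 bases before each annotated start, RefSeq) by CpG observed over expected, with values above the axis in the last bar; red lines mark the 9 windows of 7 of the 8 genes, with the window number where a gene has more than 1. Egr4 lies at 0.971 and Spint5 at 0.0675, on opposite sides of the median of 0.374.

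A genotype was said to express a gene where all 3 of its libraries reached 1 CPM. By this rule WT expressed 1 of the 8 genes, E1-KO 7, E2-KO 8 and D-KO 7, or 23 of the 32 pairs of a gene and a genotype. The exceptions were Csmd3 in E1-KO and Loxl4 in D-KO, besides 7 genes in WT. In E1-KO the 3 libraries lay above the 3 WT libraries for 7 genes (21% of all 16765 tested genes did so), in E2-KO for 8 (21.2%) and in D-KO for 8 (16.6%); since the genes were chosen for these differences, nothing is read from these counts. Within the knockout genotypes the genes fell into 4 patterns, described in turn and drawn in the plot of levels by library.

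**Figure D2:**
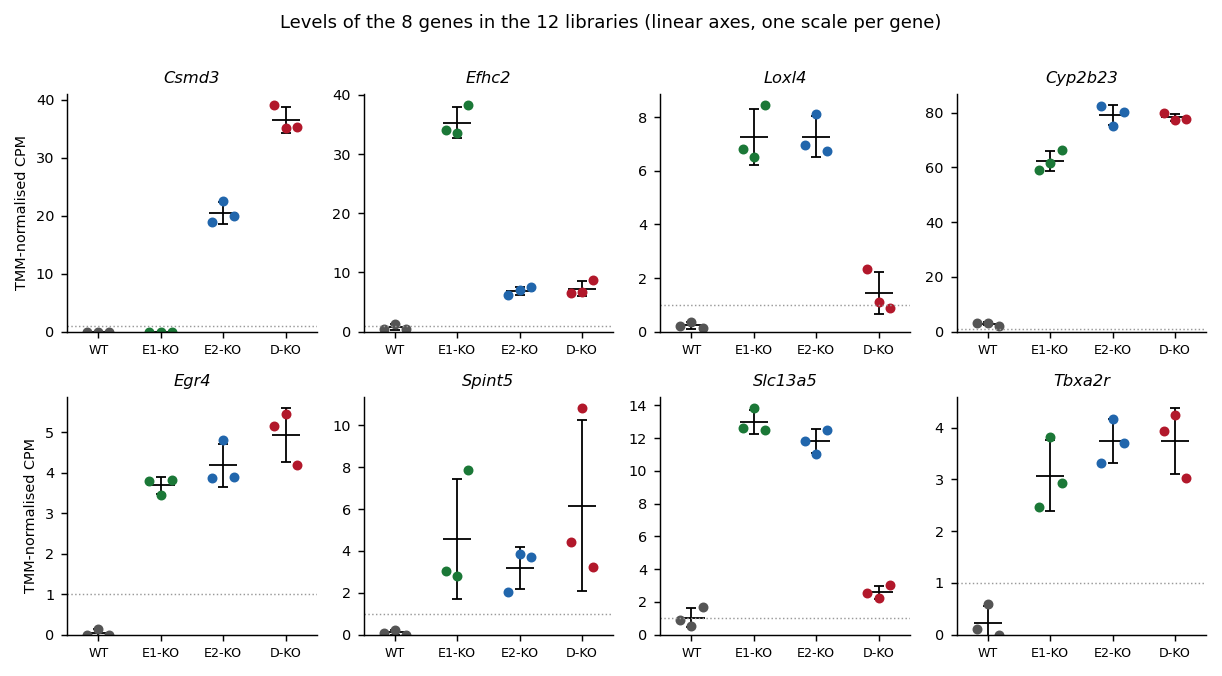
TMM-normalised CPM of each gene in the 12 libraries (points, coloured by genotype, 3 libraries each), with the mean and SD over 3 libraries (black) and a dotted line at 1 CPM; axes are linear and differ between genes. Csmd3 lies at 0 in WT and E1-KO and at 18.98 to 39.2 CPM in E2-KO and D-KO, Efhc2 is highest in E1-KO at 33.5 to 38.3 CPM, and Loxl4 and Slc13a5 are high in E1-KO and E2-KO and low in D-KO.

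Csmd3 was the gene with the sharpest division. It had 0 counts in all 3 WT and all 3 E1-KO libraries, where 3 counts over the group, taken as the floor, correspond to 0.0949 CPM in WT. The E2-KO libraries held 177, 216 and 210 counts (18.98, 22.5 and 19.9 CPM), and the D-KO libraries held 388, 348 and 363 counts (39.2, 35.2 and 35.4 CPM). E2-KO and D-KO thus expressed a gene of which no read was counted in WT or E1-KO, and their own libraries did not overlap. The means were 20.5 ± 1.84 CPM in E2-KO and 36.6 ± 2.24 CPM in D-KO (SD, n = 3), at least 216-fold and at least 385-fold higher than WT at the floor. D-KO stood 1.79-fold above E2-KO. With WT replicate 2 as the only WT library, 3 counts there gave bounds of 92.0-fold and 164-fold.

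Efhc2 was highest in E1-KO. The WT libraries held 5, 18 and 3 counts (0.514, 1.33 and 0.356 CPM) and the E1-KO libraries 359, 360 and 380 counts (34.0, 33.5 and 38.3 CPM). In E2-KO the counts were 57, 67 and 79 (6.11, 6.99 and 7.49 CPM), and in D-KO 64, 66 and 89 (6.46, 6.68 and 8.67 CPM). No knockout library overlapped WT, the E1-KO libraries lay above all others, and E2-KO and D-KO overlapped each other. The mean of 35.3 ± 2.64 CPM in E1-KO was 48.0-fold that of WT (0.735 ± 0.525 CPM), 5.14-fold that of E2-KO (6.86 ± 0.700 CPM) and 4.85-fold that of D-KO (7.27 ± 1.22 CPM). E2-KO and D-KO were 9.34-fold and 9.89-fold above WT. Of the 26 WT counts, 18 came from WT replicate 2; without it the folds over WT were 81.0, 15.8 and 16.7 for E1-KO, E2-KO and D-KO, and with it as the only WT library 26.4, 5.14 and 5.45.

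A processed pseudogene, Gm14514, lies within Efhc2 on the opposite strand and shares none of its exon bases. It had 0 counts in WT, 26, 18 and 16 counts in E1-KO cells, 0, 2 and 2 in those of E2-KO and 6, 2 and 0 for D-KO. Its highest genotype was thus that of Efhc2. Whether the counting used strand is not given in the sources used here, and intronic reads from either strand cannot be told apart. Gm14514 was named after its values were seen.

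Loxl4 and Slc13a5 were high in each single knockout and low in D-KO. Loxl4 had 2, 5 and 1 counts in WT (0.206, 0.371 and 0.119 CPM), 72, 70 and 84 in E1-KO cells (6.83, 6.51 and 8.47 CPM), 65, 78 and 71 in those of E2-KO (6.97, 8.14 and 6.74 CPM) and 23, 11 and 9 for D-KO (2.32, 1.11 and 0.877 CPM). Slc13a5 had 9, 7 and 14 counts in WT (0.926, 0.519 and 1.66 CPM), 133, 149 and 124 in E1-KO cells (12.6, 13.9 and 12.5 CPM), 110, 106 and 132 in those of E2-KO (11.8, 11.1 and 12.5 CPM) and 25, 22 and 31 for D-KO (2.52, 2.23 and 3.02 CPM). For both genes E1-KO and E2-KO overlapped, D-KO lay below both and still above WT.

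The mean of Loxl4 was 0.232 ± 0.128 CPM in WT, 7.27 ± 1.05 in E1-KO cells, 7.28 ± 0.751 in those of E2-KO and 1.44 ± 0.775 for D-KO (SD, n = 3), or 31.4-, 31.4- and 6.20-fold WT. The D-KO mean was 5.06-fold below E1-KO and 5.07-fold below E2-KO, and 1 of its libraries was under 1 CPM. Slc13a5, which carries citrate into the cell, averaged 1.04 ± 0.580 CPM in WT, 12.99 ± 0.752 in E1-KO cells, 11.8 ± 0.733 in those of E2-KO and 2.59 ± 0.401 for D-KO, or 12.5-, 11.4- and 2.50-fold WT. Its D-KO mean was 5.02-fold below E1-KO and 4.55-fold below E2-KO. Without WT replicate 2 the ratios of Loxl4 to WT became 43.8, 43.9 and 8.65, resting on 3 WT counts (exact 95% intervals 14.8 to 214, 14.8 to 215 and 2.77 to 43.6, counting error only), and those of Slc13a5 10.0, 9.11 and 2.00. With WT replicate 2 alone those of Loxl4 were 19.6, 19.6 and 3.88 and those of Slc13a5 25.02, 22.7 and 4.99.

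An annotated transcript on the opposite strand, 1700051A21Rik, shares 473 exon bases with Slc13a5, 9.58% of that gene's exon length. It had 0, 3 and 0 counts in WT, 7, 15 and 11 in E1-KO cells, 7, 15 and 10 in those of E2-KO and 2, 1 and 2 for D-KO, so its counts followed those of Slc13a5 at a lower level. Reads of the shared bases cannot be assigned to a strand here.

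Cyp2b23, Egr4 and Tbxa2r were high in all 3 knockout genotypes. Cyp2b23 had 31, 44 and 18 counts in WT (3.19, 3.26 and 2.14 CPM), so WT expressed it by the rule used here. It had 622, 662 and 659 counts in E1-KO cells (59.0, 61.6 and 66.4 CPM), 768, 720 and 846 in those of E2-KO (82.3, 75.1 and 80.3 CPM) and 791, 764 and 797 for D-KO (79.8, 77.3 and 77.6 CPM). The E1-KO libraries lay below those of E2-KO and D-KO, which overlapped each other. The means were 2.86 ± 0.629, 62.3 ± 3.79, 79.2 ± 3.72 and 78.3 ± 1.38 CPM, or 21.8-, 27.7- and 27.3-fold WT, and E2-KO stood 1.27-fold above E1-KO.

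Egr4 had 0, 2 and 0 counts in WT (0, 0.148 and 0 CPM), 40, 37 and 38 in E1-KO cells (3.79, 3.44 and 3.83 CPM), 36, 46 and 41 in those of E2-KO (3.86, 4.80 and 3.89 CPM) and 51, 54 and 43 for D-KO (5.15, 5.46 and 4.19 CPM). Every knockout library lay above every WT library. E1-KO lay below E2-KO and D-KO by a narrow margin, and E2-KO and D-KO overlapped. The ratios to WT were 58.2 (exact 95% interval 15.8 to 487), 66.0 (17.9 to 551) and 77.8 (21.2 to 649), with 2 WT counts behind them, both in WT replicate 2. Without that library WT had 0 counts, and the ratios were at least 22.3-, 25.2- and 29.8-fold. With it as the only WT library they were 24.8, 28.2 and 33.2 (exact 95% intervals 6.72 to 208, 7.63 to 235 and 9.03 to 277).

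Tbxa2r had 1, 8 and 0 counts in WT (0.103, 0.593 and 0 CPM), 26, 41 and 29 in E1-KO cells (2.47, 3.81 and 2.92 CPM), 31, 40 and 39 in those of E2-KO (3.32, 4.17 and 3.70 CPM) and 39, 42 and 31 for D-KO (3.94, 4.25 and 3.02 CPM). The 3 knockout genotypes overlapped and all lay above WT. Their means were 3.07 ± 0.685, 3.73 ± 0.425 and 3.73 ± 0.639 CPM against 0.232 ± 0.317 CPM in WT, ratios of 13.2, 16.1 and 16.1. Of 9 WT counts 8 came from WT replicate 2; the ratios were 5.17, 6.29 and 6.30 against that library alone, and 55.8, 67.7 and 67.6 without it, where 1 WT count was left (exact 95% intervals 9.77 to 2226, 11.9 to 2699 and 11.9 to 2693).

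Spint5 was high in all knockout genotypes too, with a wide spread within E1-KO and D-KO. It had 1, 3 and 0 counts in WT (0.103, 0.222 and 0 CPM), 32, 30 and 78 in E1-KO cells (3.03, 2.79 and 7.86 CPM), 19, 37 and 39 in those of E2-KO (2.04, 3.86 and 3.70 CPM) and 44, 107 and 33 for D-KO (4.44, 10.8 and 3.21 CPM). E1-KO replicate 3 and D-KO replicate 2 stood apart from the other libraries of their genotype, and the 3 knockout genotypes overlapped. The highest library was 2.82-fold the lowest in E1-KO and 3.37-fold in D-KO. The coefficient of variation was 62.7% in E1-KO and 66.3% in D-KO, where counting alone gives 14.6% and 12.8%. For Egr4, at similar counts, it was 5.84% and 13.5%, where counting gives 16.2% and 14.2%. The ratios of Spint5 to WT were 42.1, 29.5 and 56.8. Without E1-KO replicate 3 the E1-KO mean was 2.91 CPM in place of 4.56 (26.9-fold WT), and without D-KO replicate 2 the D-KO mean was 3.83 CPM in place of 6.16 (35.3-fold WT). Without WT replicate 2, 1 WT count was left and they were 81.3, 58.5 and 111 (exact 95% intervals 14.4 to 3235, 10.2 to 2334 and 19.7 to 4408), and against WT replicate 2 alone 20.2, 14.5 and 27.5 (6.76 to 98.9, 4.81 to 71.5 and 9.27 to 135).

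**Figure D3:**
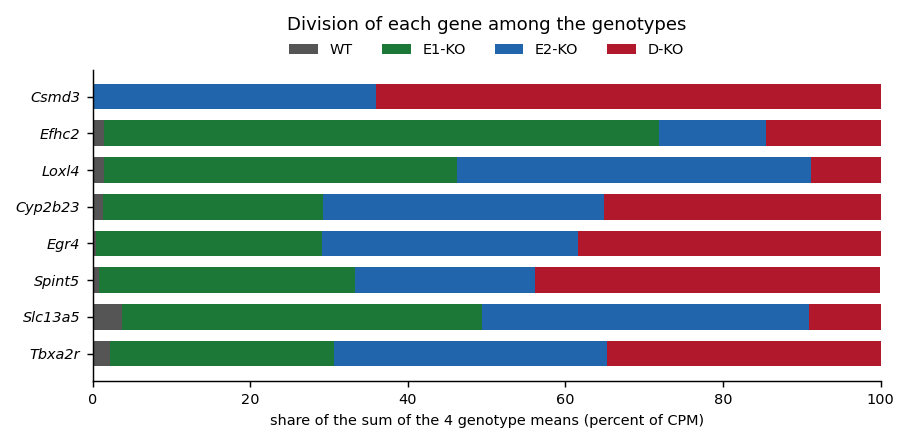
Share of the sum of the 4 genotype means of CPM held by each genotype, for each gene (stacked bars, percent). E2-KO and D-KO hold all of Csmd3 (35.9% and 64.1%), E1-KO holds 70.4% of Efhc2, and D-KO holds 8.86% of Loxl4 and 9.12% of Slc13a5.

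Divided by exon length, the order of levels changed. In E1-KO Cyp2b23 had 28.5 CPM per kb, Efhc2 13.8, Spint5 10.1 and Slc13a5 2.63, and Loxl4, Egr4 and Tbxa2r had 1.60 to 1.73. In D-KO Cyp2b23 had 35.7 CPM per kb and Spint5 13.6, followed by Efhc2 at 2.85, Egr4 at 2.30, Csmd3 at 2.17 and Tbxa2r at 1.95, with Slc13a5 at 0.524 and Loxl4 at 0.341. Cyp2b23 was thus the most abundant of the 8 per length in each knockout genotype, and Csmd3, with the largest counted length, fell among the low ones. Of the exonic 50-base words of Cyp2b23, 4.44% also occur in another gene, mainly Cyp2b19, and for Csmd3 the share is 0.307%. For Slc13a5 it is 7.37%, mainly with the antisense transcript, and the other genes share none.

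As markers of cell types in which such genes are known, 8 hepatocyte genes, Alb among them, summed to 3.29 to 4.99 CPM in WT and 2.82 to 6.04 CPM in the knockout libraries. Of these genes 5 were at 0 in each single knockout. In WT 1 was at 0, G6pc, and in D-KO 1 was at 0, a different gene. The 7 megakaryocyte and platelet genes summed to 3.68 to 7.20 CPM in WT and 3.84 to 8.14 CPM in the knockout libraries, with Gp9 at 0 throughout. The 8 male germ cell genes summed to 18.2 to 27.8 CPM in WT and 14.4 to 32.6 CPM in the knockout libraries, Tnp1 and Tnp2 at 0 throughout. The 7 fibroblast genes summed to 3.81 to 6.97 CPM in WT and 4.95 to 8.16 CPM in the knockout libraries, with Lum at 0. The 6 multiciliated cell genes in the tables summed to 16.2 to 32.9 CPM in WT and 22.9 to 30.3 CPM in the knockout libraries. The 8 neuron genes summed to 202 to 243 CPM in WT, 245 to 277 in E1-KO cells, 336 to 373 in those of E2-KO and 403 to 407 for D-KO. Nearly all of this sum was Stmn2 (mean 183 CPM in WT) and Tubb3 (24.8 CPM); Stmn2 was called higher in E2-KO and D-KO and Tubb3 in all 3 genotypes, while Syt1 was called lower in E1-KO (2.30 CPM in WT, 0.413 CPM in E1-KO) and Snap25 and Dcx had 0 counts there. The 6 trophoblast genes summed to 6.30 to 8.53 CPM in WT, 2.88 to 5.34 in E1-KO cells, 6.22 to 7.93 in those of E2-KO and 11.5 to 11.7 for D-KO, with Prl3d1 and Tpbpa at 0 throughout. Of single marker genes, Hand1 was called higher in all 3 genotypes and Gcm1 lower in E1-KO (trophoblast), Ppbp lower in E1-KO and E2-KO (platelets), Thy1 higher in E1-KO and E2-KO (fibroblasts), and Foxj1 higher in all 3 and Rsph1 in E2-KO (multiciliated cells). The sums thus did not overlap WT for the neuron list in any knockout genotype, for the trophoblast list in E1-KO and D-KO, and for the fibroblast list in E2-KO (7.08 to 8.14 CPM); their part in the levels of the 8 genes was not tested. Fewer expressing cells and less RNA per cell cannot be told apart in these bulk samples.

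Likeness of pattern was measured as the sum over the 12 libraries of the smaller of the shares that 2 genes hold there, in percent, among 13243 tested genes with a proper gene name. The median likeness to all these genes was 75.2% for Cyp2b23, 74.3% for Egr4, 75.4% for Tbxa2r and 67.6% for Spint5. It was 62.5% for Slc13a5, 60.1% for Loxl4, 54.2% for Efhc2 and 49.9% for Csmd3. The values below are to be read against these medians. Loxl4 and Slc13a5 were 91.1% alike, and Slc13a5 was first among the genes most like Loxl4. Cyp2b23, Egr4 and Tbxa2r were 92.6% to 93.8% alike, and Csmd3 and Efhc2 were the least alike of the 28 pairs, at 28.2%. The patterns of the 8 genes are compared as shares in the plot of genotype shares.

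Outside the 8 genes, the gene most like Efhc2 was H19, a maternally expressed imprinted RNA, at 90.7%. Its counts were 31, 31 and 1 in WT, 244, 262 and 245 in E1-KO cells, 38, 33 and 21 in those of E2-KO and 23, 37 and 30 for D-KO, so it too was highest in E1-KO. Platr15 (88.8%) and Sytl3 (85.5%) followed. Gpnmb, a melanosome and lysosome glycoprotein gene, and Cited4, a transcriptional coactivator gene, were the most like Slc13a5, at 93.1% and 92.7%, and were 91.1% and 90.7% like Loxl4. Cited4 had 15.1 ± 5.92 CPM in WT, 96.5 ± 3.63 in E1-KO cells, 98.7 ± 5.70 in those of E2-KO and 29.5 ± 1.77 for D-KO. Pnma5 and Miip were 95.02% and 93.5% like Cyp2b23, Miip was 92.9% like Tbxa2r, and Ube2dnl1 was 93.0% like Egr4. For Csmd3 the nearest were Pard3bos1 (87.1%), Serpina3m (82.6%) and Plscr2 (82.1%), which all stayed under 4 CPM on average in every genotype. Cdc42ep2 (82.2%), Klhl35 (81.7%) and Bnipl (81.3%) were the nearest to Spint5. A high likeness says that shares by library were close, and genes with near-equal levels in all 9 knockout libraries are alike by it whatever their level.

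Among the 30163 symbols with at most 3 counts over the WT libraries, 19 reached 1 CPM in all 3 libraries of at least 1 knockout genotype. Csmd3 (mean of 36.6 CPM in its highest genotype) and Egr4 (4.93 CPM) were the highest of the 19; the third, Gm34653, reached 2.52 CPM. By genotype, 6 of the 19 passed in E1-KO alone, 2 in E2-KO alone, 4 in D-KO alone, 3 in E1-KO and E2-KO, 3 in E2-KO and D-KO and 1, Egr4, in all 3. Named genes besides these 2, chosen after their values were seen, were Matn4 and Slc35g3 (E1-KO and E2-KO), Xlr4c (E2-KO and D-KO), Krtdap (E1-KO), Tmprss13 and Fut1 (E2-KO) and Sgcz and Marco (D-KO). Their highest genotype means were 1.18 to 1.95 CPM, so most sit close to the limit of 1 CPM that placed them. The reverse was counted under a stricter rule, at most 3 counts over all 9 knockout libraries with 1 CPM or more in all WT libraries. It held for 5 symbols, a number that cannot be set against 19 because the rules differ. The count of 19 became 3 with 0 WT counts required and 67 with a limit of 0.5 CPM.

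The genes beside the 8 on their chromosomes were not part of the choice, and their differences between genotypes were tested with edgeR's quasi-likelihood model over all 12 libraries and all 16765 tested genes, calling a Benjamini-Hochberg adjusted p below 0.05. Of the 80 nearest protein-coding RefSeq genes, 5 on each side of each gene, 78 were in the tables and 42 were tested. In E1-KO relative to WT 20 of 42 neighbours were called (14 higher, 6 lower), where 34.2% of all tested genes were called (15.7% higher, 18.5% lower). In E2-KO it was 19 (14 higher, 5 lower; 35.3% of all genes, 16.7% higher and 18.6% lower) and in D-KO 10 (9 higher, 1 lower; 22.8%, 10.6% and 12.2%). The median log2 difference of the neighbours was 0.28, 0.39 and 0.25, and that of all tested genes was -0.01, 0.00 and -0.02. Among the knockout genotypes 8 neighbours were called between D-KO and E1-KO (15.9% of all genes), 1 between D-KO and E2-KO (4.48%) and 0 between E1-KO and E2-KO (0.596%). At an unadjusted p below 0.05 the last comparison had 3 of 42, and DESeq2 called 0. The spread in these fits was estimated over all 12 libraries, the more variable WT ones among them. With only the 2 genotypes compared, 22 neighbours were called between D-KO and E1-KO, 21 between D-KO and E2-KO and 11 between E1-KO and E2-KO. Calls over all genes were then 8025, 5872 and 3377. Leaving out WT replicate 2 gave 22 calls in D-KO against WT, 16 between D-KO and E1-KO and 10 between D-KO and E2-KO, and leaving out E2-KO replicate 1 gave 12 in E2-KO against WT. Without WT replicate 3 the D-KO comparisons with E1-KO and E2-KO gave 15 and 7, without WT replicate 1 the latter gave 3, and without any 1 D-KO or E1-KO library the former gave 2 or 3. The comparisons with WT share the WT libraries. For the named neighbours below, the libraries whose omission ended a call stand beside it.

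Other settings ended some of these calls too. With only the 2 genotypes compared in the fit, the calls against WT were lost for Fundc1, Kdm6a, Maoa, Got1, R3hcc1l, Ube2c, Med31, Txndc17, Mfsd12 and Fzr1 in E1-KO (adjusted p 0.0564 to 0.183), for Rad21, Kdm6a, Fundc1, Sfrp5, Alms1, Mfsd12 and Fzr1 in E2-KO (0.0502 to 0.153) and for Xaf1, Utp23, Maoa and Dnttip1 in D-KO (0.077 to 0.172). With WT replicate 2 as the only WT library they were lost for Kdm6a, Maoa, R3hcc1l, Med31, Txndc17 and Fzr1 in E1-KO (0.0598 to 0.776), for Fundc1, Alms1 and Fzr1 in E2-KO (0.117 to 0.377) and for Maoa in D-KO (0.172). Scaling by library totals ended those of Kdm6a, R3hcc1l and Txndc17 in E1-KO and of Rad21, Fundc1 and Sfrp5 in E2-KO (0.0501 to 0.157), and testing without a filter those of Fundc1 in E2-KO and Utp23 in D-KO (0.0553 and 0.0674).

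**Figure D4:**
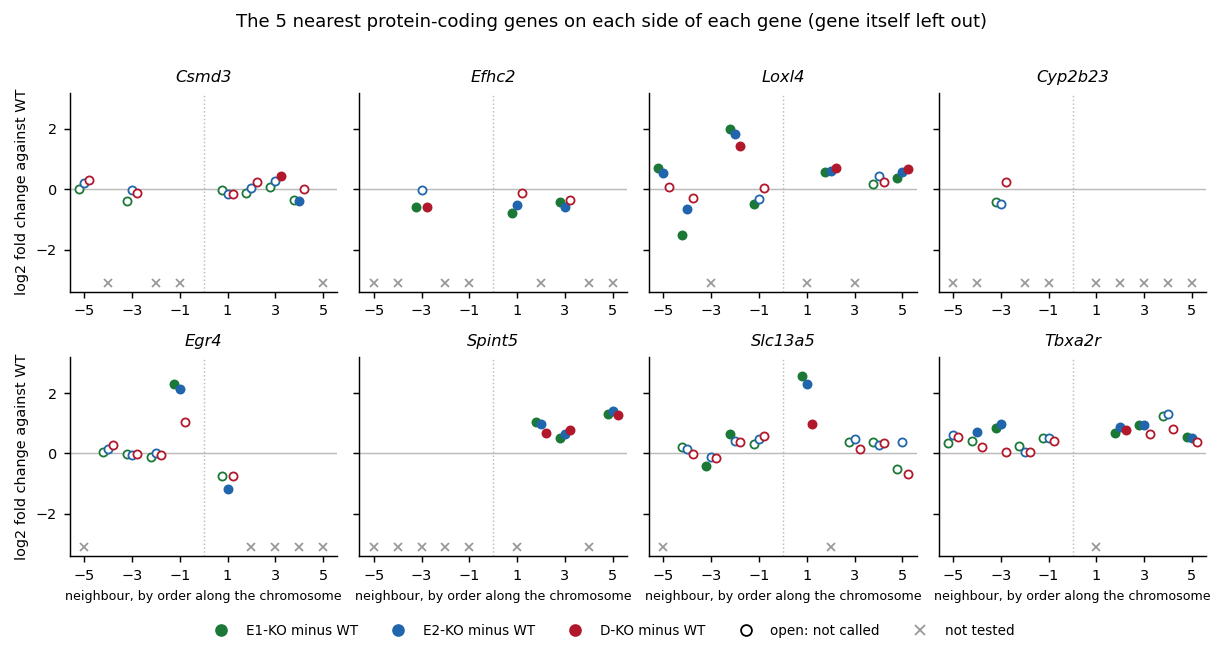
Log2 fold change against WT (edgeR) of the neighbours of each gene, by order along the chromosome from 5 before to 5 after; colours are the knockout genotypes, filled points were called (adjusted p below 0.05), open points were not and crosses were not tested. Xaf1, the first gene after Slc13a5, lies at 2.58 in E1-KO cells, 2.32 in those of E2-KO and 0.99 for D-KO, and Fbxo41, the first before Egr4, at 2.30, 2.15 and 1.04.

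Xaf1, an inhibitor-of-apoptosis-associated and interferon-inducible gene, lies 34.2 kb beyond the start of Slc13a5 and showed the same order of genotypes. Its counts were 13, 15 and 22 in WT (1.34, 1.11 and 2.61 CPM), 98, 120 and 87 in E1-KO cells (9.29, 11.2 and 8.77 CPM), 93, 75 and 69 in those of E2-KO (9.97, 7.82 and 6.55 CPM) and 30, 29 and 38 for D-KO (3.03, 2.93 and 3.70 CPM). E1-KO and E2-KO lay above D-KO, and D-KO above WT, with no overlap. Relative to WT Xaf1 was higher by 2.58 ± 0.30 in E1-KO (log2 ± SE, edgeR adjusted p = 1.8e-05), by 2.32 ± 0.30 in E2-KO (adjusted p = 5.9e-05) and by 0.99 ± 0.31 in D-KO (adjusted p = 0.036). D-KO was lower than E1-KO by 1.60 ± 0.27 (log2 difference -1.60, adjusted p = 0.0015) and lower than E2-KO (log2 difference -1.33 ± 0.27, adjusted p = 0.013). The call of D-KO against WT was lost when WT replicate 1 or 2, any D-KO replicate, E1-KO replicate 1 or E2-KO replicate 2 was left out (adjusted p 0.0513 to 0.12), and that against E2-KO when D-KO replicate 1 or 2 or E2-KO replicate 1 or 2 was left out (adjusted p 0.0522 to 0.0769). On the other side of Slc13a5, 4930563E22Rik (23.5 kb away) was not called, and Med31, a Mediator subunit gene, was higher in E1-KO (0.63 ± 0.18, adjusted p = 0.015; 0.0823 without E1-KO replicate 2). Txndc17 was lower in E1-KO at the threshold (-0.41 ± 0.15, adjusted p = 0.048), a call lost with any of 10 libraries left out (adjusted p 0.0603 to 0.227; it was kept without WT replicate 2 or WT replicate 3).

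Fbxo41, an F-box protein gene 8.13 kb past the end of Egr4, had 5, 22 and 4 counts in WT (0.514, 1.63 and 0.475 CPM), 50, 40 and 54 in E1-KO cells (4.74, 3.72 and 5.44 CPM), 37, 49 and 36 in those of E2-KO (3.97, 5.11 and 3.42 CPM) and 27, 10 and 21 for D-KO (2.73, 1.01 and 2.05 CPM). It was higher in E1-KO (2.30 ± 0.45, adjusted p = 0.0013) and E2-KO (2.15 ± 0.46, adjusted p = 0.0023), and its difference in D-KO was 1.04 ± 0.48 (adjusted p = 0.13). Fbxo41 was lower in D-KO than in E1-KO (-1.26 ± 0.40, adjusted p = 0.047), a call lost without any single knockout library (adjusted p 0.0535 to 0.167). On the other side Alms1, a centrosome and basal body gene, was lower in E2-KO (-1.16 ± 0.31, adjusted p = 0.012), with differences of -0.76 ± 0.30 in both E1-KO and D-KO (adjusted p = 0.07 and 0.093).

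Around Loxl4 the second gene before it, Crtac1, which encodes a cartilage acidic protein, was higher in all 3 genotypes, by 1.99 ± 0.18, 1.82 ± 0.18 and 1.44 ± 0.18 in E1-KO, E2-KO and D-KO (adjusted p = 3e-06, 7.5e-06 and 8.9e-05). R3hcc1l, 0.005 kb past the end of Loxl4, went the other way in E1-KO (-0.50 ± 0.14, adjusted p = 0.016), a call lost without E1-KO replicate 1 or WT replicate 1 (adjusted p 0.0648 to 0.0822). Sfrp5, a secreted Wnt antagonist gene, was lower in E1-KO (-1.52 ± 0.25, adjusted p = 0.00039) and higher in D-KO than in E1-KO (1.23 ± 0.25, adjusted p = 0.0052). In E2-KO it was lower at the threshold (-0.66 ± 0.24, adjusted p = 0.043), a call lost with any of 11 libraries left out (all but WT replicate 3, adjusted p 0.0527 to 0.188). Got1, the cytosolic aspartate aminotransferase gene, was higher in all 3 genotypes (0.38 ± 0.10, 0.57 ± 0.10 and 0.67 ± 0.10, adjusted p = 0.011, 0.00075 and 0.00031). Pyroxd2, the first gene after Loxl4, had 11 to 20 counts per genotype and was not tested.

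Near Spint5 all 3 tested neighbours rose in each genotype: Dnttip1, a histone deacetylase complex subunit gene (1.04 ± 0.16, 0.96 ± 0.16 and 0.68 ± 0.16 in E1-KO, E2-KO and D-KO, adjusted p = 0.00026, 0.00052 and 0.0076), Ube2c, a mitotic ubiquitin-conjugating enzyme gene (0.52 ± 0.11, 0.65 ± 0.11 and 0.79 ± 0.11, adjusted p = 0.0034, 0.00076 and 0.00024), and Snx21, a sorting nexin gene (1.32 ± 0.23, 1.40 ± 0.23 and 1.28 ± 0.23, adjusted p = 0.00063, 0.00042 and 0.0012). Wfdc3, the protease inhibitor gene 13.2 kb after Spint5, was too low to be tested, with 0, 1 and 0 counts in WT, 7, 9 and 13 in E1-KO cells, 4, 8 and 7 in those of E2-KO and 7, 0 and 5 for D-KO. Spint4, 12.9 kb before it, had 4 to 11 counts per genotype. The 5 genes on that side of Spint5 were all too low to be tested.

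Near Tbxa2r, Hmg20b, a chromatin protein gene 10.9 kb away, was higher in all 3 genotypes (0.68 ± 0.15, 0.87 ± 0.15 and 0.77 ± 0.15, adjusted p = 0.004, 0.0008 and 0.0028). Mfsd12, a lysosomal transporter gene, was higher in E1-KO and E2-KO (0.93 ± 0.23 and 0.96 ± 0.23, adjusted p = 0.0066 and 0.0057), with 0.63 ± 0.23 in D-KO (adjusted p = 0.059). Fzr1, an activator of the anaphase-promoting complex, was higher in E1-KO and E2-KO (0.55 ± 0.16 and 0.50 ± 0.16, adjusted p = 0.015 and 0.023); the E1-KO call was lost without E1-KO replicate 1 or WT replicate 1 (adjusted p up to 0.0529) and the E2-KO call without E2-KO replicate 1 or 2 or WT replicate 1 or 3 (adjusted p up to 0.0815). Cactin, 2.02 kb before Tbxa2r, was not called, and Gipc3, 0.088 kb after it, had 6 to 14 counts per genotype.

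The neighbours of Efhc2 did not follow it. All 3 tested ones were lower in E1-KO, where Efhc2 was highest: Fundc1, a mitochondrial receptor for mitophagy (-0.79 ± 0.19, adjusted p = 0.0055), Maoa, a monoamine oxidase (-0.58 ± 0.17, adjusted p = 0.016; lost without E1-KO replicate 2 or WT replicate 1, 0.0596 to 0.0726), and Kdm6a, a histone demethylase (-0.42 ± 0.13, adjusted p = 0.025; lost without any E1-KO library or WT replicate 1 or 3, 0.0569 to 0.0894). Kdm6a was also lower in E2-KO (-0.60 ± 0.13, adjusted p = 0.0036) and Maoa in D-KO (-0.59 ± 0.17, adjusted p = 0.021; lost without D-KO replicate 2 or 3 or WT replicate 1, 0.0651 to 0.0893). Fundc1 in E2-KO (-0.52 ± 0.19, adjusted p = 0.043) lost its call with any of 10 libraries left out (all but WT replicates 2 and 3, 0.0513 to 0.19). Ndp, the first gene before Efhc2, had 0 counts in WT, E1-KO and E2-KO and 1 in D-KO.

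The genes nearest to Csmd3 and Cyp2b23 were low or were not called. The nearest protein-coding genes of Csmd3 are 2465 kb (Kcnv1) and 1862 kb (Trps1) away. Kcnv1 had 0 counts in WT and in D-KO, where Csmd3 was highest, and Trps1, a GATA-type repressor, differed by -0.16 ± 0.18 in E2-KO and -0.15 ± 0.18 in D-KO (adjusted p = 0.52 and 0.58). Farther off, Utp23 was higher in D-KO (0.42 ± 0.13, adjusted p = 0.027; lost without WT replicate 3 or any D-KO library, up to 0.0931) and Rad21, a cohesin subunit, was lower in E2-KO (-0.40 ± 0.13, adjusted p = 0.03; lost without E2-KO replicate 1 or 2 or WT replicate 1, up to 0.113). Of the 10 neighbours of Cyp2b23, which include Vmn1r185 and Cyp2b19 on either side, only Nlrp4a had enough counts to be tested and it was not called.

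Lists of the genes that work with the 8, or belong to their families, held 131 genes besides the 8, of which 130 were in the tables and 82 were tested. In E1-KO relative to WT 39 of 82 were called (22 higher, 17 lower), in E2-KO 38 (23 higher, 15 lower) and in D-KO 25 (17 higher, 8 lower). Of all tested genes 34.2%, 35.3% and 22.8% were called, 15.7%, 16.7% and 10.6% higher and 18.5%, 18.6% and 12.2% lower. The counts of each list below are to be read against these shares too. Median log2 differences of the 82 list genes were 0.22, 0.23 and 0.08. Between D-KO and E1-KO 21 were called, between D-KO and E2-KO 11 and between E1-KO and E2-KO 1, where 15.9%, 4.48% and 0.596% of all tested genes were called. Without WT replicate 2 these became 32, 20 and 2, and the count in D-KO against WT became 38; without any 1 D-KO or E1-KO library the first was 9 to 12, and the second ranged from 3 (without E2-KO replicate 2) to 20 over the libraries left out. Fits of only the 2 genotypes compared called 39 list genes between D-KO and E1-KO, 33 between D-KO and E2-KO and 16 between E1-KO and E2-KO. Over all genes they called 8025, 5872 and 3377. The lists were drawn up with earlier results of these data known, so their counts are a description. With only the 2 genotypes compared, the calls against WT of Csmd2, Rfx3, Rxra, Idh2, Egr1 and Spint1 in E1-KO, Ahr and Slc25a1 in E2-KO and Foxj1, Rfx3 and Arc in D-KO were lost (adjusted p 0.0531 to 0.17). With WT replicate 2 as the only WT library, those of Csmd2, Foxj1, Rfx3, Pla2g4a and Spint1 in E1-KO, Rfx3, Ahr and Pla2g4a in E2-KO and Foxj1, Rfx3 and Arc in D-KO were lost (0.0758 to 0.499). Library totals ended those of Ahr and Arc (0.0784 and 0.0703), and testing without a filter that of Ahr (0.141). The plot of the 8 lists shows each tested gene.

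**Figure D5:**
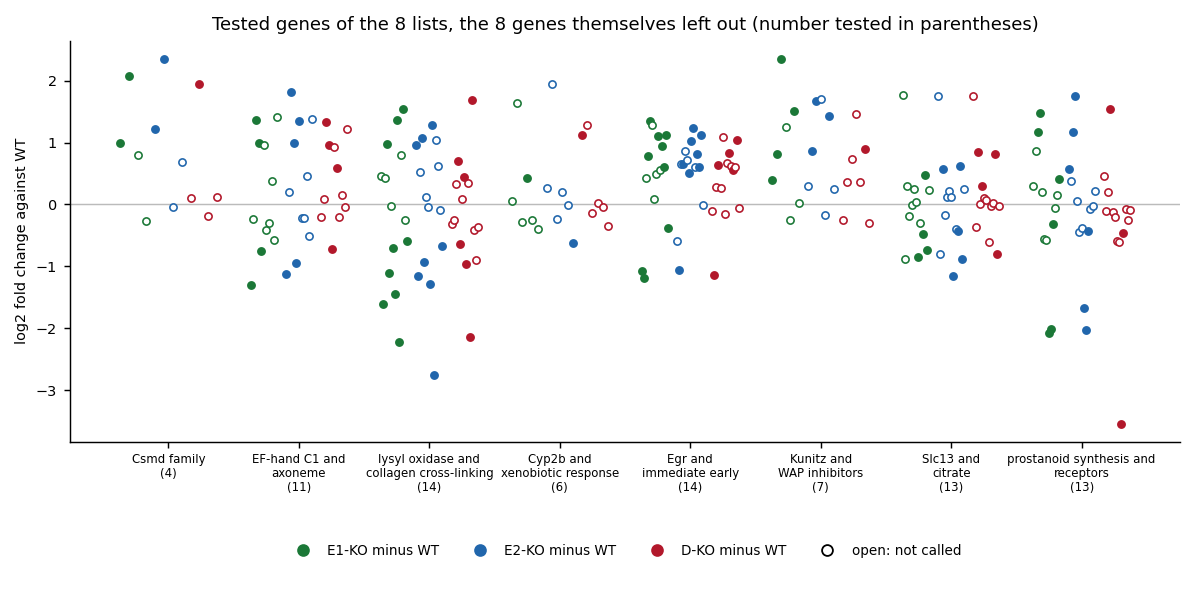
Log2 fold change against WT (edgeR) of the tested genes of each list, with the 8 genes left out, in E1-KO, E2-KO and D-KO (colours); filled points were called (adjusted p below 0.05) and open points were not. Both directions occur in most lists, from 2.35 for Wfdc2 in E1-KO to -3.54 for Pla2g4a in D-KO.

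In the family of Csmd3, 2, 2 and 1 of 4 tested genes rose in E1-KO, E2-KO and D-KO. Csmd1 had only 10 to 24 counts per genotype. Csmd2 rose in E1-KO (0.99 ± 0.28, adjusted p = 0.013; 0.0616 without E1-KO replicate 2) and E2-KO (1.22 ± 0.28, adjusted p = 0.0041) and differed by 0.11 ± 0.29 in D-KO (adjusted p = 0.82), where Csmd3 was highest. Sez6, a related CUB and sushi domain gene of neurons, rose in all 3 genotypes (2.08 ± 0.37, 2.34 ± 0.37 and 1.94 ± 0.38, adjusted p = 0.00069, 0.00027 and 0.0018), from 0.650 ± 0.285 CPM in WT to 2.53 to 3.34 CPM.

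Among the axoneme genes listed with Efhc2, 2 of 11 tested rose and 2 fell in E1-KO, 3 rose and 2 fell in E2-KO, and 3 rose and 1 fell in D-KO. Rfx2, a transcription factor of ciliary genes, rose in all 3 (0.99 ± 0.16, 0.99 ± 0.16 and 0.95 ± 0.16, adjusted p = 0.00043, 0.00045 and 0.00085). Foxj1, the regulator of motile cilia, rose from 0.947 ± 0.207 CPM in WT to 2.43 to 3.41 CPM (1.37 ± 0.35, 1.82 ± 0.35 and 1.33 ± 0.35, adjusted p = 0.0081, 0.0012 and 0.014; 0.0613 for D-KO if its replicate 1 is left out). Rfx3 was lower in E2-KO (-0.94 ± 0.24, adjusted p = 0.0085). Its calls in E1-KO (-0.75 ± 0.24, adjusted p = 0.025) and D-KO (-0.72 ± 0.24, adjusted p = 0.043) were lost with 4 and 11 of the 12 libraries left out in turn (WT replicate 1 and 3 and E1-KO replicate 2 and 3 for E1-KO, all but WT replicate 2 for D-KO; up to 0.176).

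The lysyl oxidase and collagen cross-linking list held 3 higher and 6 lower genes of 14 tested in E1-KO cells, 3 and 5 in those of E2-KO and 3 and 3 for D-KO. Loxl2, a collagen IV cross-linking enzyme, moved opposite to Loxl4: it was lower in E1-KO and E2-KO (-1.60 ± 0.18 and -1.16 ± 0.18, adjusted p = 1.8e-05 and 0.00026), differed by -0.25 ± 0.17 in D-KO (adjusted p = 0.3), and was higher in D-KO than in E1-KO (1.35 ± 0.18, adjusted p = 0.00035). Loxl1 rose in E2-KO (0.95 ± 0.21, adjusted p = 0.0037) and was lower in D-KO than in E2-KO (-1.27 ± 0.22, adjusted p = 0.0051), Loxl3 was not called and Lox had 0 to 10 counts per genotype. Bmp1, a procollagen proteinase, rose in E1-KO and E2-KO (1.36 ± 0.14 and 1.29 ± 0.14, adjusted p = 1e-05 and 1.9e-05) and was lower in D-KO than in either (-1.01 ± 0.14 and -0.94 ± 0.14, adjusted p = 0.00046 and 0.0023), and differed by 0.35 ± 0.14 between D-KO and WT (adjusted p = 0.099). P4ha2, a collagen prolyl hydroxylase, fell in all 3 (-1.44 ± 0.15, -1.29 ± 0.15 and -0.96 ± 0.15, adjusted p = 1e-05, 3.1e-05 and 0.00044).

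The other Cyp2b genes were silent or nearly so: Cyp2b13 had 0 counts in all 12 libraries, and Cyp2b9, Cyp2b10 and Cyp2b19 had 0 to 3 counts per genotype. Of 6 tested genes of the xenobiotic list 1 was called in each comparison with WT. These were Rxra in E1-KO (0.42 ± 0.12, adjusted p = 0.013; 0.0552 without E1-KO replicate 3), Ahr in E2-KO (-0.63 ± 0.23, adjusted p = 0.048; lost with any of 10 libraries left out, all but E2-KO replicate 2 and WT replicate 2, 0.0543 to 0.178) and Cyp2s1 in D-KO (1.11 ± 0.19, adjusted p = 0.00098). The receptor genes Nr1i3 (16.4 ± 1.78 CPM in WT, 13.5 to 14.8 CPM in the knockout genotypes) and Nr1i2 (7 to 25 counts per genotype) were not called.

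No other Egr gene was called higher in a knockout genotype. Egr2 and Egr3 had 0 to 3 counts per genotype. Egr1 was lower in E1-KO (-1.07 ± 0.31, adjusted p = 0.015; lost without E1-KO replicate 3 or WT replicate 2, 0.0547 to 0.0702) and differed by -0.59 ± 0.30 in E2-KO and -0.11 ± 0.29 in D-KO (adjusted p = 0.13 and 0.82). Of the immediate early list 6 rose and 3 fell of 14 tested in E1-KO, 7 rose and 1 fell in E2-KO and 4 rose and 1 fell in D-KO. Dusp1, a MAP kinase phosphatase, rose in all 3 (1.12 ± 0.17, 1.13 ± 0.17 and 1.04 ± 0.17, adjusted p = 0.00022, 0.00023 and 0.00059), as did Arc, a synaptic immediate early gene, in E1-KO and E2-KO (0.95 ± 0.17 and 0.82 ± 0.17, adjusted p = 0.001 and 0.0029) and in D-KO (0.56 ± 0.18, adjusted p = 0.034; lost without WT replicate 1 or 3 or any D-KO library, 0.0575 to 0.109). Nab1, a corepressor of Egr proteins, fell in all 3 (-1.18 ± 0.18, -1.05 ± 0.18 and -1.14 ± 0.18, adjusted p = 0.00023, 0.0006 and 0.00048).

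In the Kunitz and WAP inhibitor list 4, 3 and 1 of 7 tested genes rose in E1-KO, E2-KO and D-KO and none fell. Spint3 had 0 counts in all libraries. Spint1 and Spint2, inhibitors of membrane serine proteases, were at 59.6 ± 10.8 and 81.3 ± 25.5 CPM in WT. Spint2 rose in E1-KO and E2-KO (0.81 ± 0.17 and 0.86 ± 0.17, adjusted p = 0.0021 and 0.0015), and Spint1 in E1-KO (0.40 ± 0.12, adjusted p = 0.022; lost without E1-KO replicate 2 or 3 or WT replicate 1, up to 0.0831). Wfdc2 rose in E1-KO and E2-KO (2.35 ± 0.27 and 1.66 ± 0.28, adjusted p = 2.4e-05 and 0.00052). St14, a membrane serine protease that Spint1 and Spint2 inhibit, rose in all 3 (1.50 ± 0.13, 1.43 ± 0.13 and 0.90 ± 0.13, adjusted p = 2.5e-06, 4.6e-06 and 0.00029).

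Of the citrate genes listed with Slc13a5, 1 rose and 3 fell of 13 tested in E1-KO, 2 rose and 3 fell in E2-KO and 3 rose and 1 fell in D-KO. The other carriers of the family were low: Slc13a1 and Slc13a3 had 0 to 8 counts per genotype, and Slc13a2 (0.428 to 1.56 CPM) and Slc13a4 (1.19 to 2.19 CPM) were not called. Slc25a1, the mitochondrial citrate carrier, rose in E2-KO and D-KO (0.58 ± 0.13 and 0.84 ± 0.13, adjusted p = 0.0035 and 0.00035). Idh2, mitochondrial isocitrate dehydrogenase, rose in all 3 (0.48 ± 0.12, 0.62 ± 0.12 and 0.81 ± 0.12, adjusted p = 0.009, 0.002 and 0.00038), and Me1, malic enzyme, fell in all 3 (-0.74 ± 0.12, -0.88 ± 0.12 and -0.80 ± 0.12, adjusted p = 0.00044, 0.00012 and 0.00037).

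Of the prostanoid genes, 3 rose and 3 fell of 13 tested in each single knockout, while 1 rose and 2 fell in D-KO. Among the other prostanoid receptors Ptgfr and Ptgdr had 0 counts in all libraries, Ptger2, Ptger3 and Ptgir had 1 to 33 counts per genotype and were not tested, and Ptger1, Ptger4 and Ptgdr2 were not called in any comparison with WT. Tbxas1, the thromboxane synthase gene, had 0 counts outside D-KO, where it had 2. Ptges, a prostaglandin E synthase, rose in E1-KO and E2-KO (1.16 ± 0.12 and 1.17 ± 0.12, adjusted p = 8.4e-06 and 1e-05), differed by 0.20 ± 0.12 in D-KO (adjusted p = 0.26) and was lower in D-KO than in either (-0.97 ± 0.12 and -0.98 ± 0.12, adjusted p = 0.00021 and 0.00074). Ptgis, prostacyclin synthase, rose in all 3 (1.48 ± 0.21, 1.75 ± 0.21 and 1.54 ± 0.21, adjusted p = 0.00018, 4.8e-05 and 0.0002). Pla2g4a, the phospholipase that frees arachidonic acid, fell in all 3 (-2.01 ± 0.51, -2.03 ± 0.52 and -3.54 ± 0.70, adjusted p = 0.0067, 0.007 and 0.00085), from 1.97 ± 0.972 CPM in WT.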

How the data were processed

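Total RNA was measured in 12 libraries, 3 per genotype, of E14 cells after 1 day of 2 µM retinoic acid. The deposited values are whole-number counts of reads per gene symbol, made by the authors with HISAT2 2.1.0 and HTSeq 0.9.1 on mm10, per the submitters' processing notes. Which annotation was used, and whether strand was, is not given in the sources used here. Rows that name no gene were left out; the largest, for reads outside any feature, held 1.11 to 1.20 reads per counted read.

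From the counts, edgeR 4.0.16 (R 4.3.3) fitted one mean per genotype over 12 libraries by quasi-likelihood (filterByExpr, 16765 of 52535 symbols kept, TMM scaling, robust dispersion), with Benjamini-Hochberg adjustment over all tested genes and a threshold of 0.05. CPM are TMM-normalised. A gene was expressed at 1 CPM or more in all 3 libraries of a genotype; a group at 0 was set to a floor of 3 counts over the group, and intervals (95%, exact binomial) and floors cover counting error only. The edgeR fit was run on simulated data that gave each gene the same dispersion in WT and knockout libraries. That differs from the real libraries, so the simulation does not show how the fit handles their unequal spread. DESeq2 1.42.0, other scalings, filters and designs, and leaving out each library were tried as alternatives. Named genes include the 8 genes, the 3 most alike to each and the nearest neighbour on each side. Of called neighbours and list genes, up to 3 per gene or list were named, those with the smallest adjusted p against WT. They are thus not typical of their lists. Close family members were named whatever their result. The 8 genes, the lists and the rules were chosen with earlier results of these data known. Deviations from the genotype means were little correlated between libraries of the same replicate number (-0.078 to 0.082). The labels state no pairing across genotypes, and such correlations cannot show that there was none. Pairing was left out of the main fit. Samples of other assays in the series were not analysed here.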

Additional observations from a re-analysis of the deposited data

How the results depend on the processing

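Of 130 calls of a named gene in a comparison, 75 were kept under every setting run, 55 were lost in at least 1 and 0 were reversed; of 64 recomputed levels of the 8 genes 1 moved by more than 1 SD, Cyp2b23 in D-KO, at 76.3 CPM under library totals. Scaling by library totals shifted all genes by 0.11 (log2) in E1-KO against WT. Counts of calls depended on which libraries set the spread, since WT libraries differed more than the others; the cause was not tested. With only the 2 genotypes compared in the fit, calls over all genes were 2552 (E1-KO against WT), 2535 (E2-KO against WT), 1438 (D-KO against WT), 3377 (E1-KO against E2-KO), 8025 (D-KO against E1-KO) and 5872 (D-KO against E2-KO), neighbours called were 8, 8, 5, 11, 22 and 21, and list genes called were 23 (E1-KO), 14 (D-KO), 16, 39 and 33 in the comparisons that moved. With WT replicate 2 as the only WT library, chosen after seeing the data, calls were 6238 for D-KO against WT and 3457, 8030 and 6157 among the knockouts, with 12, 23 and 22 neighbours and 17, 40 and 33 list genes. Without a filter on low counts, calls were 415 (E1-KO against E2-KO) and 1472 (D-KO against E2-KO), and neighbours called 16 (D-KO against WT), 1 and 4. DESeq2's Wald test called 249 and 1166 genes in those same knockout comparisons, and 3 neighbours on each side gave 12 calls in E2-KO. Symbols with at most 3 WT counts that a knockout genotype expressed, 19 in all, numbered 3 with 0 WT counts required and 67 at 0.5 CPM. Leaving out 1 library gave 3965 to 8753, 3969 to 8887, 2413 to 7006, 16 to 722, 1174 to 4934 and 227 to 2875 calls over all genes in the same order of comparisons, 14 to 30, 12 to 26, 7 to 22, 0 to 2, 2 to 16 and 0 to 10 neighbours, 30 to 50, 31 to 47, 17 to 38, 0 to 3, 9 to 32 and 3 to 20 list genes, and 23 to 24 expressed pairs; the highest counts over all genes against WT came without WT replicate 2. At 0.5 CPM 25 of 32 pairs were expressed. With the replicate block, which the labels do not tie to a shared culture, calls were 5414, 5582, 3467, 71, 2310 and 581, neighbours 18, 18, 10, 0, 6 and 1, and list genes 39, 34, 23, 1, 16 and 8; among named genes it ended the calls of Txndc17 in E1-KO, Fundc1, Sfrp5 and Ahr in E2-KO, Xaf1 and Rfx3 in D-KO and Fbxo41 between D-KO and E1-KO (adjusted p 0.0548 to 0.0717). Depth limits the WT levels: 6 of the 8 genes had fewer than 30 WT counts in all.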
